A study of Mus musculus with 8 samples.

Results

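In all, 10 cytokine genes that polarise T helper cells or drive acute inflammation were followed in mouse lymph nodes (LN): Il12a, Il12b, Il23a, Il6, Il1b, Tnf, Ifng, Il17a, Il4 and Il10. A probe set, the group of short probes that measures a transcript on the array, was taken as theirs where the annotation paired it with that gene and no other. This gave 11 probe sets out of 22626 tested and 10 genes out of 12393. Only Il12b had a second probe set of its own, and the brighter one by mean over the 8 arrays stands for the gene. The samples were C57BL/6 mice aged 8 weeks, of both sexes, pooled by at least 3 per array. The H3RKO mice lack the histamine H3 receptor gene, Hrh3, through a targeted allele (B6.129P2-Hrh3 tm1Twl) and were set against wild type (WT) mice. There were 6 groups: H3RKO and WT after CFA+PTX, H3RKO and WT after CFA (1 array in each of these), and H3RKO and WT untreated (2 arrays each). CFA, complete Freund's adjuvant, is an oil emulsion with killed mycobacteria, and PTX is pertussis toxin, a bacterial toxin added to CFA to induce experimental autoimmune encephalomyelitis. Injected mice were sampled at 24 h. For CFA+PTX the array titles give only PTX, while the descriptions give both agents. A pool hides the spread between its mice, and the spread used below is between pools. In comparisons over both genotypes it also holds differences between the genotypes in their response to treatment. An SD over arrays of both genotypes or of several treatments also holds the differences between those conditions.

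As background, dendritic cells and macrophages that sense mycobacteria release IL-12, IL-23, IL-6, IL-1 and TNF, and this mixture decides which programme a naive CD4+ T cell takes up. IL-12 favours Th1 cells that make interferon gamma, IL-6 with IL-23 and IL-1 favours Th17 cells that make IL-17A, IL-4 favours Th2 cells, and IL-10 restrains the others. Most of these RNAs are scarce in a resting node, because few of its cells make them at any time.

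The stretches of genome just before the starts of Il12b, Il6 and Il1b are shown first because these 3 genes had the widest spread over the arrays. Each line gives 250 bases upstream of a RefSeq start (build GRCm38.p6), 5′ to 3′ on the gene's own strand, and capitals mark matches to 4 short motifs.
Il12b, chr11:44399813-44400062, plus strand: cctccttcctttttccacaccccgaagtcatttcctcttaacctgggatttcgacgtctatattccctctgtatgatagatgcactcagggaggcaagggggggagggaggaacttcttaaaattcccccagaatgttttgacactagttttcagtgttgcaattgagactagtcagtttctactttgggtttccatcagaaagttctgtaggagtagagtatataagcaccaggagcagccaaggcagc
Il6, chr5:30012864-30013113, plus strand: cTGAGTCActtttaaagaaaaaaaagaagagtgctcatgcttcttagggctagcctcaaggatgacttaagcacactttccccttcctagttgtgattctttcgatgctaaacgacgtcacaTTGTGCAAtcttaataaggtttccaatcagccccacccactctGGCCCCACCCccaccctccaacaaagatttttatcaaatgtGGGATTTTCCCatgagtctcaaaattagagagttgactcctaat
Il1b, chr2:129371140-129371389, minus strand: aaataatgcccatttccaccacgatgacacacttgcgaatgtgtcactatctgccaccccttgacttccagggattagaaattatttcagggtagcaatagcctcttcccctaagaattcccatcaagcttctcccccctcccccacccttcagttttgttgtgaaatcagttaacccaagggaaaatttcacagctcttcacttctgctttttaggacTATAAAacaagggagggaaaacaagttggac
The motifs were searched on both strands with overlaps counted: GGGNNNNNCC for NF-kB, TTGCNNAA for the C/EBP core, TGANTCA for AP-1 and TATAAA for the TATA box. The Il6 stretch held 3 matches to the NF-kB letters, overlapping ones included, 1 to the C/EBP core and 1 to AP-1. The Il1b stretch held 1 TATAAA, and the Il12b stretch held none of the 4. Such matches are common: of 32851 mouse windows of this length, 45.8% held the NF-kB letters, 9.56% the C/EBP core, 6.75% AP-1 and 12.4% TATAAA. Windows were found for 8 of the 10 genes. A match is a run of letters and was not tested as a binding site.

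The values were deposited as log2 signals after Robust Multichip Average (RMA) summarisation. The array medians lay between 7.939 and 7.996. The T cell markers averaged 10.81 to 11.13 and the B cell markers 11.21 to 11.52 over the arrays. Salivary and lacrimal gland genes were also present, with mean signals of 12.44 to 13.20 on 6 arrays. They were far lower on the WT CFA+PTX array (5.49) and lower on the WT untreated 1 array (9.44), so that these 2 arrays stood apart from the other 6. Hrh3 itself has a single probe set whose place relative to the deleted stretch is not given in the sources used here, and it does not check the genotype labels. In whole-node RNA, fewer cells of a type and less RNA per cell cannot be told apart.

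Most of the cytokine probe sets were dim. Their mean log2 signal ran from 4.25 for Il23a to 8.42 for Il1b, with a median of 5.81 over the 10 genes, against a median of 7.97 over all probe sets. Il1b alone lay above that median, with 56.3% of probe sets dimmer. Tnf (mean 7.79, 47.7% of probe sets dimmer) and Il12a (7.66, 46.0%) lay just under the middle. Genes of the eye, lens and sperm (with Amelx, a tooth enamel gene), which a lymph node is not known to use, gave a sense of the signal of unused probe sets: 14 of them had means of 3.55 to 7.40 and a median of 4.98. The means of 7 cytokine genes (Il12b, Il23a, Il6, Ifng, Il17a, Il4 and Il10) lay within that range, and those of Il23a and Il6 lay under its median. Probe sets bind with unequal strength, so these ranks describe dimness and do not order the genes by RNA amount. The 17 measured receptor genes for these cytokines had a median of 9.69.

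**Figure D1:**
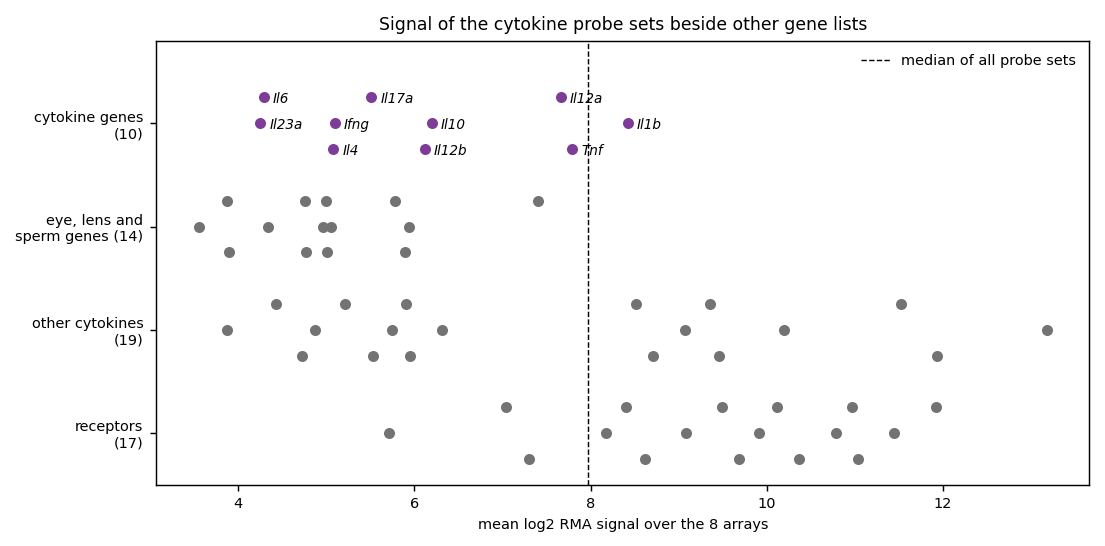
Mean log2 RMA signal over the 8 arrays (horizontal axis) of the 10 cytokine genes and of 3 other gene lists, each dot a gene, with the dashed line at the median of all probe sets (7.97). Il1b is the only cytokine gene right of the line, and 7 of the others lie within the span of the eye, lens and sperm genes (3.55 to 7.40).

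Il12a, Il12b and Il23a encode subunits of IL-12 and IL-23: p35, the shared p40 and p19. Il12b read 6.18 in H3RKO CFA+PTX, 6.98 in WT CFA+PTX, 5.57 in H3RKO CFA, 5.88 in WT CFA, 6.01 and 6.12 in H3RKO untreated, and 6.24 and 5.94 in WT untreated. Its range of 1.41 was wider than that of 98.9% of probe sets. The WT CFA+PTX array was the highest and the H3RKO CFA array the lowest, and both CFA arrays lay under all 4 untreated ones. The second Il12b probe set had the same highest and lowest arrays, with 6.30 in H3RKO CFA+PTX, 6.79 in WT CFA+PTX, 5.47 in H3RKO CFA, 5.54 in WT CFA, 6.23 and 5.94 in H3RKO untreated, and 6.22 and 5.78 in WT untreated. Il12a read 7.79 and 8.01 in H3RKO and WT CFA+PTX, 7.53 and 7.69 in H3RKO and WT CFA, 7.81 and 7.49 in H3RKO untreated, and 7.49 and 7.45 in WT untreated. Its highest array was also WT CFA+PTX, but an untreated H3RKO array came next. Il23a was flat, between 4.15 and 4.45 over the 8 arrays. That span of 0.30 was under the median span of all probe sets (0.33), at a signal level where a change in RNA may not be readable.

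Il6, Il1b and Tnf are the acute cytokines of innate cells, and Il6 also drives the liver's acute phase response. Il6 read 4.55 in H3RKO CFA+PTX, 4.14 in WT CFA+PTX, 5.01 in H3RKO CFA, 4.18 in WT CFA, 3.76 and 4.40 in H3RKO untreated, and 4.35 and 3.97 in WT untreated. Its range of 1.25 (wider than 98.5% of probe sets) came at a dim level, and the untreated H3RKO pair alone spanned from the lowest array to a value above 4 of the 6 other arrays. Il1b, which encodes IL-1 beta, read 8.48 in H3RKO CFA+PTX, 7.93 in WT CFA+PTX, 8.61 in H3RKO CFA, 8.33 in WT CFA, 8.69 and 9.08 in H3RKO untreated, and 8.22 and 8.01 in WT untreated. Every H3RKO array lay above every WT array, and the 2 untreated H3RKO arrays were the highest. Tnf read 7.61 and 7.51 in H3RKO and WT CFA+PTX, 7.90 and 7.71 in H3RKO and WT CFA, 7.99 and 7.80 in H3RKO untreated, and 7.92 and 7.92 in WT untreated. The CFA+PTX arrays were the lowest pair for Tnf, and H3RKO CFA lay above an untreated H3RKO array, so injected and untreated arrays overlapped.

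Ifng, Il17a and Il4 mark the Th1, Th17 and Th2 products, and Il10 the regulatory one. Ifng read 4.68 and 5.11 in H3RKO and WT CFA+PTX, 5.27 and 5.27 in H3RKO and WT CFA, 5.10 and 5.15 in H3RKO untreated, and 5.48 and 4.77 in WT untreated. The untreated WT pair differed by most of the gene's whole range of 0.81. Il17a stayed between 5.41 and 5.67 and Il4 between 4.96 and 5.15, with ranges of 0.25 and 0.19 that were under the median of all probe sets. Il10 read 6.48 and 6.46 in H3RKO and WT CFA+PTX, 6.41 and 6.11 in H3RKO and WT CFA, 5.74 and 6.04 in H3RKO untreated, and 6.25 and 6.14 in WT untreated. The untreated H3RKO arrays were its lowest pair, and WT CFA lay just under both untreated WT arrays.

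**Figure D2:**
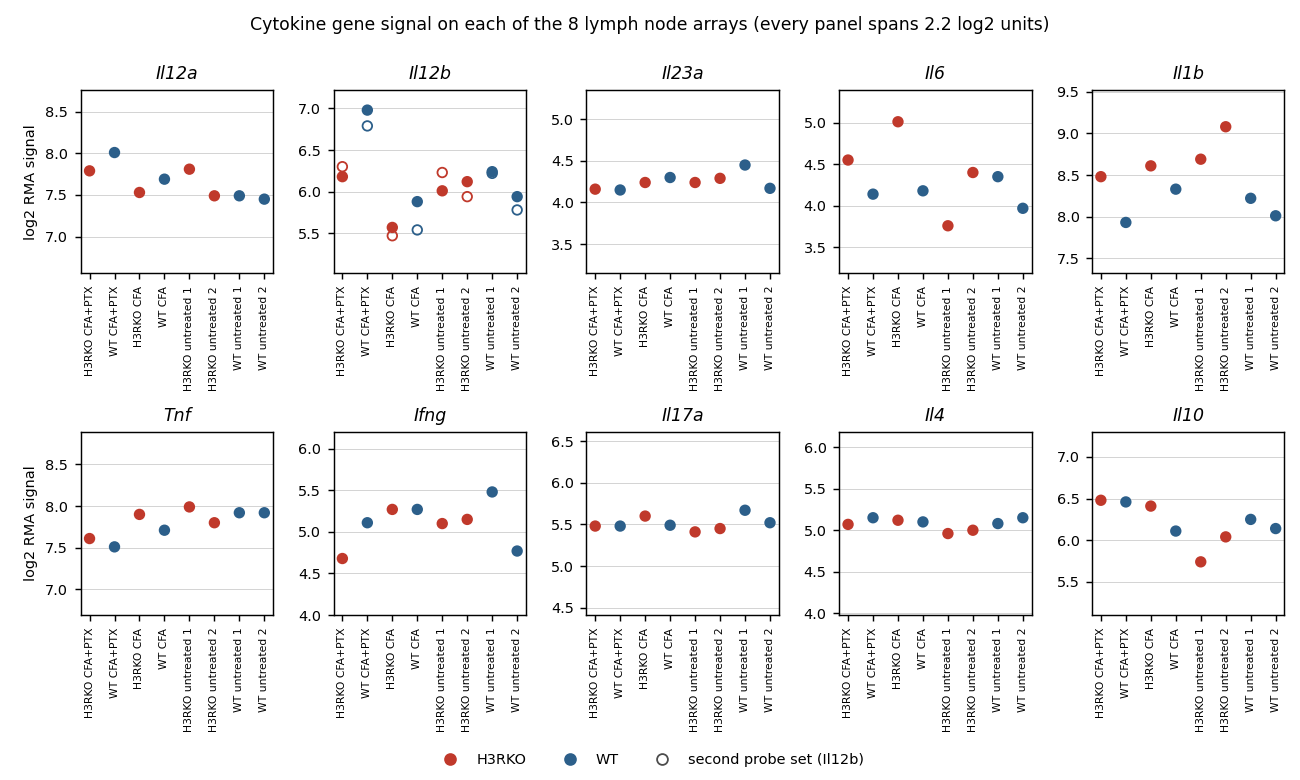
Log2 RMA signal of each cytokine gene (vertical axes, each spanning the same 2.2 units) on the 8 arrays, red for H3RKO and blue for WT, filled for the brighter probe set and open for the second Il12b probe set. Il1b is higher on all 4 red points than on any blue point, Il12b peaks on WT CFA+PTX (6.98), and Il23a, Il17a and Il4 are nearly level.

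The first comparison asked whether injection moved these RNAs at 24 h: the 4 injected arrays, CFA and CFA+PTX together, were set against the 4 untreated arrays with genotype in the model (limma, Benjamini-Hochberg adjustment over all 22626 probe sets). None of the 10 passed an adjusted p under 0.05, where 0.0177% of all probe sets did. Tnf and Il10 had an unadjusted p under 0.05, 2 of 10 beside 11.0% of all probe sets. Il10 averaged 6.36 ± 0.17 in injected and 6.04 ± 0.22 in untreated LN (SD, n = 4 each), a log2 difference of 0.32 ± 0.12 (SE; 95% interval 0.04 to 0.60; adjusted p = 0.399 by limma), or 1.25-fold. Tnf averaged 7.68 ± 0.17 in injected and 7.91 ± 0.08 in untreated LN, a difference of -0.23 ± 0.07 (-0.39 to -0.07; adjusted p = 0.32 by limma). Il12a was 0.20 ± 0.10 higher (adjusted p = 0.539 by limma) and Il6 0.35 ± 0.20 higher (adjusted p = 0.583 by limma), and both intervals held 0. The 10 differences had a median of 0.03, against 0.01 over all probe sets, with 5 above 0 and 5 below. No cytokine gene had all injected arrays above all untreated arrays (3.07% of all probe sets did) or all below (2.98%).

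Whether PTX on top of CFA mattered was asked with the 2 CFA+PTX arrays against the 2 CFA arrays in the same model, and no probe set at all passed an adjusted p under 0.05 (0.0%). Il12b showed the widest difference of the cytokine genes. It averaged 6.58 ± 0.57 after CFA+PTX and 5.73 ± 0.22 after CFA (SD, n = 2 each, 1 H3RKO and 1 WT array). The log2 difference was 0.85 ± 0.20 (0.39 to 1.31), or 1.80-fold, with adjusted p = 0.891 by limma. The second probe set differed by 1.04 ± 0.20 (0.58 to 1.50), or 2.06-fold, with adjusted p = 0.854 by limma. With an unadjusted p under 0.05 as well, this second probe set met the study's criterion of fold change and unadjusted p, which the brighter one did not. That criterion was met by 15 of the 22626 probe sets. In both genotypes the CFA+PTX array lay above the CFA array. For the brighter probe set, much of the size came from 1 array. Leaving out WT CFA+PTX, the array with few gland transcripts, lowered its difference to 0.51. Leaving out WT untreated 1 as well gave 0.48. Leaving out H3RKO CFA+PTX instead raised the difference to 1.19. The part of the gland transcripts in the Il12b value was not tested. For Tnf the difference with PTX was -0.24 ± 0.10 (-0.47 to -0.02; adjusted p = 0.891 by limma), and without the H3RKO CFA array it was -0.16. These 2 genes were the ones with an unadjusted p under 0.05, beside 5.48% of all probe sets. Ifng had a difference of -0.38 ± 0.22 and Il12a of 0.29 ± 0.14, and both intervals held 0.

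The genotype comparison set the 4 H3RKO arrays against the 4 WT arrays over all treatments. No probe set passed an adjusted p under 0.05 (0.0%), and 3.64% had an unadjusted p under 0.05, among them Il1b and no other cytokine gene. Il1b averaged 8.71 ± 0.26 in H3RKO and 8.12 ± 0.18 in WT LN (SD, n = 4 each), a log2 difference of 0.59 ± 0.12 (0.31 to 0.87), or 1.51-fold, with adjusted p = 0.999 by limma. Without the 2 arrays low in gland transcripts it was 0.62. Il1b was the only one of the 10 whose genotypes did not overlap with H3RKO above, a pattern shown by 0.743% of all probe sets, while 0.941% had WT above and no cytokine gene was among them. The other 9 differences ran from -0.29 for Il12b (interval -0.62 to 0.04) to 0.27 for Il6 (-0.20 to 0.75), and the median of all 10 was -0.05.

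**Figure D3:**
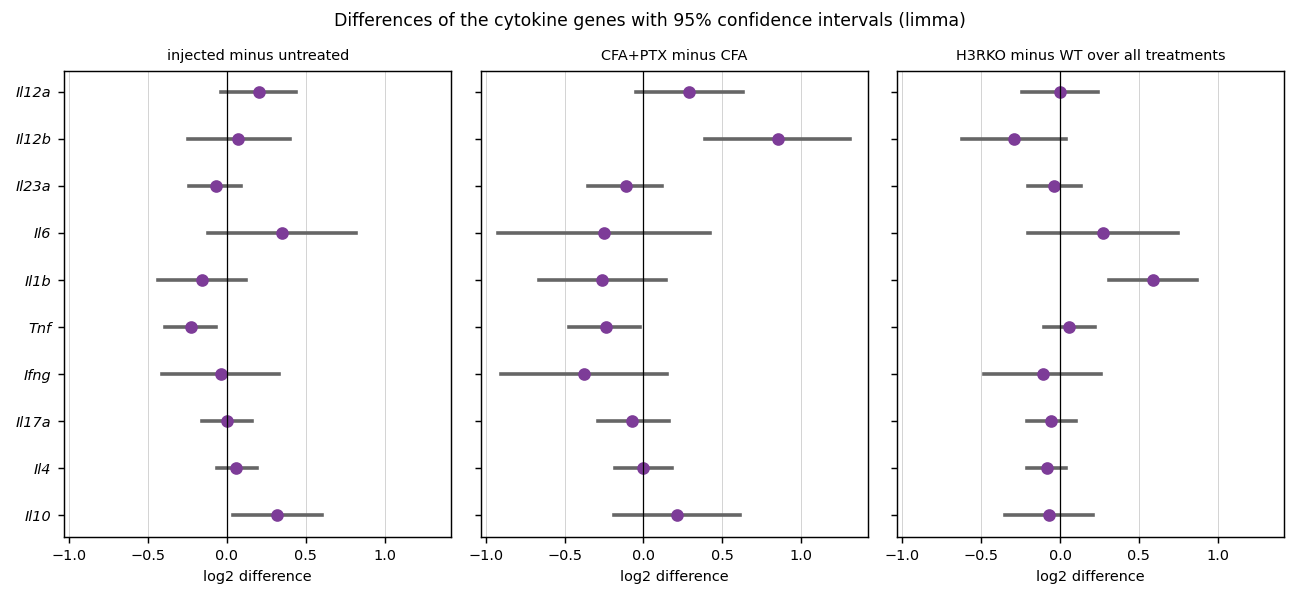
Log2 differences of the 10 cytokine genes (points) with 95% confidence intervals (bars) in the 3 comparisons of the additive limma model. The interval lies wholly off 0 for Tnf and Il10 after injection, for Il12b and Tnf with PTX added to CFA, and for Il1b between genotypes, and no adjusted p is under 0.05.

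Within each treatment genes were called by a fold change over 2 together with an unadjusted p under 0.05, the criterion of the study's methods, from a model with a mean for each group. Its residual spread comes from the untreated pairs alone, and the injected groups, at 1 array each, are taken to vary like them. By moderation, limma then drew each gene's spread toward a value estimated over all probe sets (2 residual and 3.58 prior degrees of freedom). None of the 10 genes met the criterion in untreated LN (0.15% of all probe sets did), after CFA (0.225%) or after CFA+PTX (0.362%). At an unadjusted p under 0.05 with no fold limit, 1 of the 10 genes passed each time. It was Il1b in untreated LN (5.42% of all probe sets), Il6 after CFA (3.38%) and Il12b after CFA+PTX (3.24%). Il1b was 0.77 ± 0.16 higher in untreated H3RKO than in untreated WT (0.38 to 1.16; 1.70-fold; adjusted p = 0.916 by limma), and the difference was 0.28 ± 0.22 after CFA and 0.55 ± 0.22 after CFA+PTX (adjusted p = 1.0 by limma for both). Il6 read 5.01 in H3RKO CFA and 4.18 in WT CFA, a difference of 0.84 ± 0.33 (0.01 to 1.67; adjusted p = 1.0 by limma) between 2 dim readings. Il12b was 6.18 in H3RKO CFA+PTX and 6.98 in WT CFA+PTX, a difference of -0.80 ± 0.18 (-1.25 to -0.35; adjusted p = 1.0 by limma). The second Il12b probe set gave -0.48 ± 0.25, with an interval of -1.11 to 0.14 that holds 0. The same WT CFA+PTX array, low in gland transcripts, is the only WT array in that contrast, and it cannot be left out of it.

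An interaction term asked whether injection moved a gene differently in H3RKO and in WT. No probe set passed an adjusted p under 0.05 (0.0%). Il12b (-0.53 ± 0.18) and Il10 (0.46 ± 0.18) had an unadjusted p under 0.05, 2 of 10 genes beside 4.78% of all probe sets, with adjusted p = 1.0 by limma for each. For Il10 the injected H3RKO arrays read 6.48 and 6.41 against 5.74 and 6.04 in untreated H3RKO, and the injected WT arrays 6.46 and 6.11 against 6.25 and 6.14 in untreated WT. The H3RKO arrays separated by treatment and the WT arrays did not, with only 2 arrays on each side. The share of all probe sets with that pattern was not counted. Leaving out an untreated array moved the Il10 interaction to between 0.31 and 0.61. The second Il12b probe set gave an interaction of -0.36 ± 0.25, whose interval (-0.99 to 0.26) holds 0.

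Il1b is made by macrophages, dendritic cells and neutrophils, so the markers of these cells were set beside it. All 12 measured neutrophil markers were higher in H3RKO over all treatments, with a median log2 difference of 0.58, and none passed an adjusted p under 0.05. Their mean signal was 7.87 to 8.59 in the H3RKO arrays and 7.54 to 7.72 in the WT arrays, which did not overlap. By the study's criterion 2 of the 12 were called in untreated LN (0.15% of all probe sets were), 0 after CFA (0.225%) and 7 after CFA+PTX (0.362%), all higher in H3RKO. S100a8 and S100a9, the subunits of the neutrophil protein calprotectin, were called in both, and the granule genes Ngp, Ltf, Mpo, Elane and Prtn3 after CFA+PTX. The calls after CFA+PTX set 1 H3RKO array against 1 WT array, the one with the fewest gland transcripts. S100a9 read 10.83, 9.83, 10.79 and 10.68 in H3RKO (CFA+PTX, CFA and the untreated pair). In WT it read 9.03, 9.48, 8.85 and 9.17 in the same order, a difference of 1.40 ± 0.24 (adjusted p = 0.999 by limma). Without the 2 arrays low in gland transcripts that difference was 1.04, and without either CFA array it was 1.75. For S100a8 the difference was 1.18, and 0.86 and 1.52 in those same settings. In untreated LN alone it was 1.72 ± 0.13 for S100a9 and 1.53 ± 0.13 for S100a8 (adjusted p = 0.0924 by limma for each). After CFA it was 0.35 for S100a9 and 0.18 for S100a8, and after CFA+PTX 1.80 and 1.49. The 9 monocyte and macrophage markers had a median difference of -0.02 between genotypes, with 3 above 0, and the 11 dendritic cell markers one of -0.03, with 2 above 0. The H3RKO array with the highest neutrophil mean, CFA+PTX (8.59), had the lowest Il1b of the H3RKO arrays (8.48). Over the 8 arrays, Pearson r with Il1b ran from -0.20 (Prtn3) to 0.81 (S100a9) among the neutrophil markers. It ran from -0.62 (Lyz2) to 0.73 (Ccr2) among the monocyte and macrophage markers, and from -0.54 (Ccr7) to 0.55 (Xcr1) among the dendritic cell markers. The part of neutrophils in the Il1b difference was not tested. Among 12392 other genes the 3 whose signals ran most like that of Il1b over the 8 arrays were Acod1 (Pearson r = 0.96), an itaconate-making enzyme of activated macrophages, Spin4 (r = 0.92) and Bcs1l (r = 0.91), a mitochondrial assembly factor. This is a description over 8 arrays that share their genotypes and treatments. Acod1 read 5.58, 5.76, 5.75 and 6.07 in H3RKO (CFA+PTX, CFA and the untreated pair) and 5.40, 5.54, 5.60 and 5.46 in WT. These readings and those of Spin4 (4.02 to 4.41) were dim, within the span of the eye, lens and sperm genes (3.55 to 7.40). Bcs1l was brighter but ran only from 8.62 to 8.82.

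**Figure D4:**
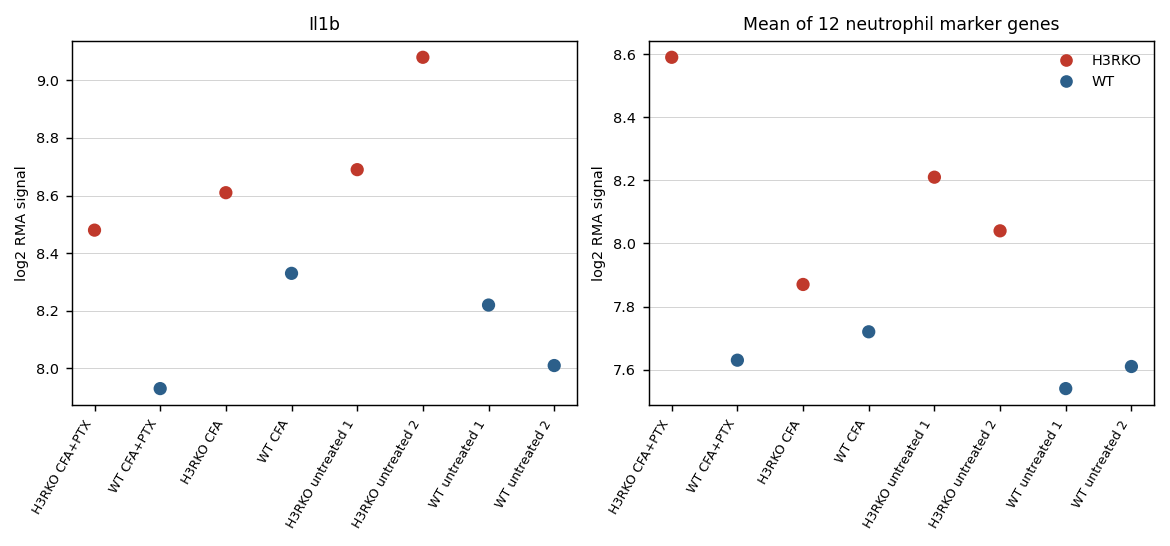
Log2 RMA signal of Il1b (left) and the mean log2 signal of 12 neutrophil marker genes (right) on each array, red for H3RKO and blue for WT. In both panels every red point lies above every blue point, at 8.48 to 9.08 against 7.93 to 8.33 for Il1b and 7.87 to 8.59 against 7.54 to 7.72 for the markers.

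The receptors and the factors downstream of these cytokines come next, from lists chosen with earlier results of these data known. None of 17 measured receptor genes was called in any of the comparisons above. Il6st (gp130, the signalling chain shared by IL-6 family receptors) was 0.11 ± 0.07 and Il6ra 0.13 ± 0.08 higher after injection (adjusted p = 0.633 and 0.62 by limma). Il12rb1 and Il12rb2, the IL-12 receptor chains, moved by -0.03 ± 0.08 and 0.05 ± 0.07. Of 14 T helper factors and STAT genes none passed. Tbx21, which encodes the Th1 factor T-bet, had -0.29 ± 0.08 after injection (adjusted p = 0.291 by limma), while Stat4, the transducer of IL-12, had 0.04 ± 0.05. 

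Among 10 genes listed as targets of STAT3, the factor that IL-6 and IL-10 activate, 9 were higher after injection. Their median log2 difference was 0.32, against 0.01 over all probe sets. Of the 10, 7 had an unadjusted p under 0.05, beside 11.0% of all probe sets. As this list was chosen with earlier results of these data known, the counts only describe it. The part of STAT3, IL-6 or IL-10 in these rises was not tested. Saa3, an acute phase serum amyloid gene of the list, rose. It read 10.78 and 11.11 in H3RKO and WT CFA+PTX and 10.86 and 10.46 in H3RKO and WT CFA, against 8.37 and 8.41 in H3RKO untreated and 7.38 and 8.32 in WT untreated. All injected arrays lay above all untreated ones, by 2.68 ± 0.23 on the log2 scale (adjusted p = 0.0283 by limma). Leaving out any single array but WT untreated 1 took that adjusted p above the threshold, to 0.0533 to 0.146, with the difference at 2.48 to 2.89. Socs3, the feedback inhibitor of IL-6 signalling, read 10.56 to 10.74 in injected and 9.91 to 10.28 in untreated LN, a difference of 0.54 ± 0.09 (adjusted p = 0.138 by limma). Lcn2 had 0.61 ± 0.17, Cebpd 0.42 ± 0.13 and Lbp 0.40 ± 0.08, and none of them passed. Il1rn, the IL-1 receptor antagonist, was the exception in sign, at -0.18 ± 0.10. Il6 and Il10 themselves were not called in the same arrays.

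**Figure D5:**
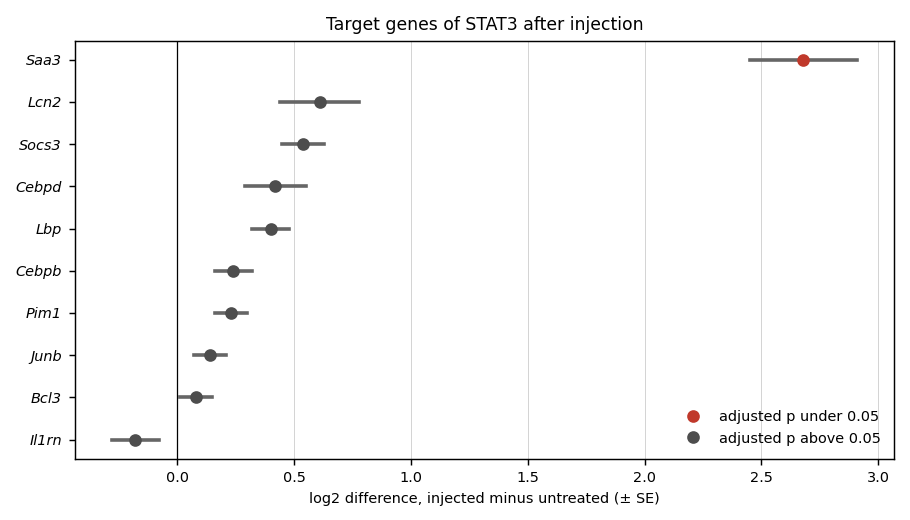
Log2 difference, injected minus untreated, of the 10 genes listed as STAT3 targets (points) with its SE (bars), red where the adjusted p is under 0.05. Saa3 lies at 2.68, 8 of the others lie between 0.08 and 0.61, and Il1rn lies at -0.18.

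After injection the 12 interferon gamma targets had a median of -0.01 with 5 above 0, and the chemokine gene Cxcl9 had -0.16 ± 0.09. The 12 NF-kB targets of TNF and IL-1 had a median of 0.04, and Nfkbia, which encodes the NF-kB inhibitor, had 0.06 ± 0.05. Among 9 IL-17 targets the median was 0.01. Mmp3, a matrix protease of that list which fibroblasts also make, fell, with 8.72 and 8.35 in H3RKO and WT CFA+PTX and 8.75 and 8.21 in H3RKO and WT CFA against 9.52 and 9.68 in H3RKO untreated and 9.18 and 9.08 in WT untreated (-0.86 ± 0.06; adjusted p = 0.0283 by limma). Leaving out any single array but H3RKO CFA took its adjusted p to 0.0612 to 0.14. The other 2 genes that fell with injection, Postn and Fn1, encode matrix proteins and were in no list. The 6 measured adipocyte markers were all lower in injected LN too, with a median of -0.52. At an unadjusted p under 0.05 there were 4 of them, beside 11.0% of all probe sets, and none of these markers was called. Their mean signal was 9.81 to 10.29 in injected and 10.19 to 10.73 in untreated LN, and the part of fat in the falls of Mmp3, Postn and Fn1 was not tested. The 9 IL-4 targets of STAT6 had a median of -0.10, 8 of them below 0, with Retnla, an alternatively activated macrophage product, at -0.98 ± 0.19 (adjusted p = 0.196 by limma). Between genotypes, Ido1, an interferon-induced tryptophan enzyme, met the study's criterion in untreated LN, with 4.71 and 4.71 in H3RKO against 5.78 and 6.50 in WT, a difference of -1.43 ± 0.23 (adjusted p = 0.758 by limma) at a dim signal. The chemokine gene Cxcl10 of the same list ran the other way there, with 10.50 and 10.41 in H3RKO against 9.71 and 9.60 in WT, a difference of 0.80 ± 0.09 (adjusted p = 0.299 by limma) that was under a fold change of 2. Cxcl9 differed by 0.31 ± 0.11 (adjusted p = 0.916 by limma).

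Of the other cytokine genes, 19 were measured, and none was called in any of the 7 comparisons. The growth factors of T cells and mast cells, Il2 (mean 5.75) and Il3 (3.87), and the Th2 products Il5 (4.43) and Il13 (4.72) were dim like Il4. The constitutive cytokines of the node were bright, among them Ltb (13.18), which encodes lymphotoxin beta and shapes lymphoid tissue, and Il16 (11.93). Tnfsf13b, which encodes the B cell survival factor BAFF, had a difference of 0.44 ± 0.08 after injection (adjusted p = 0.194 by limma), with means of 9.25 in untreated LN, 9.42 after CFA and 9.94 after CFA+PTX. Il7, the T cell survival factor, had 0.38 ± 0.14 (adjusted p = 0.392 by limma), with means of 9.16 in untreated LN, 9.19 after CFA and 9.90 after CFA+PTX. For both genes the higher values came with CFA+PTX. Il18, an IL-1 family cytokine, had 0.46 ± 0.12 after injection (adjusted p = 0.271 by limma), while Il1a moved by -0.02 ± 0.10.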

How the data were processed

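The authors hybridised LN RNA from 8 pools to Affymetrix arrays of 1 colour, 1 array for each pool. The authors ran RMA in Partek for background, normalisation and summary, and deposited log2 values between 2.42 and 14.4. They carry no call of signal over background, and the number of arrays limits the precision. After 64 control probe sets were set aside, 22626 were tested with limma 3.58.1 in R 4.3.3. Treatment effects and the genotype difference over all treatments came from an additive model (4 residual degrees of freedom), and differences within a treatment and the interaction from a model with 6 group means (2). Named genes were the cytokine genes, each by its brighter probe set, at most 4 called genes of each list, their receptors and factors, and the 3 genes most like a bright member. Genes given beyond that rule, with Postn and Fn1 among them, were chosen after their values were seen. The cytokine genes and all lists were chosen with earlier results of these data known. Alternatives were a model without moderation, trend with robust fitting, median centring, a filter on dim probe sets, a replicate block, the mean over a gene's probe sets, other criteria and each array left out. The fits for injection and for genotype over all treatments were tested on simulated data with 200 changed probe sets and independent noise. At a log2 change of 0.5 they recovered 71.2% and 57.8% of the changed probe sets, and at 1 93% and 90.5%. The other comparisons were not simulated. Upstream sequences are from RefSeq. Figures used matplotlib 3.10.9 and Python 3.11.15.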

Additional observations from a re-analysis of the deposited data

How the results depend on the processing

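By its brighter probe set, no cytokine gene was called in any of the 7 comparisons under the alternatives run for it, the replicate block included. Without moderation, none had an unadjusted p under 0.05 in the genotype comparisons within a treatment or in the interaction. The second Il12b probe set met the study's criterion for CFA+PTX against CFA (1.04 on the log2 scale). The dim filter kept only Il1b of the 10 genes. The interaction was not run by the study's criterion or with an injected array left out, and the comparison after CFA or CFA+PTX not without its own arrays. Both arrays low in gland transcripts were left out in the 3 comparisons of the additive model only. The counts over all probe sets moved more. After injection 4 probe sets were called, and 1 without moderation, 20 with trend and robust fitting, 11 among probe sets at or above the median signal, 8 with the replicate block, 20 by the study's criterion, 0 to 19 with an array left out, and 1 without both arrays low in gland transcripts, an alternative chosen after seeing the data. For CFA+PTX against CFA the count was 0, and 15 by the study's criterion and 0 to 2 with an array left out. For H3RKO against WT over all treatments it was 0, and 15 by that criterion and 0 to 6 with an array left out. For H3RKO against WT in untreated LN it was 34, and 15 without moderation, 14 with the dim filter, 62 with the replicate block, 2 by adjusted p and 34 to 115 with an array left out. After CFA it was 51, and 16 without moderation, 26 with the dim filter and 0 by adjusted p. After CFA+PTX it was 82, and 30 without moderation, 44 with the dim filter, 128 with the replicate block and 2 by adjusted p. The same-numbered untreated arrays correlated at 0.123 in their deviations from the group means, and 2 pairs that share only a number do not pair the samples. The cause of these shifts was not tested.

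Of 252 values for 18 single-gene differences under alternatives, 225 kept their side of the threshold and 0 changed sign. Another 21 fell under it (Saa3, Mmp3 and Ido1) and 6 passed it (S100a8 and S100a9). Only Saa3, Mmp3 and Ido1 were called to begin with, so for the other genes keeping their side meant staying uncalled. Some alternatives could not move an estimate, such as leaving out an array outside a contrast within a treatment. The tally therefore does not measure robustness. Il1b between genotypes ran from 0.48 to 0.69 over the alternatives, with adjusted p = 0.756 to 1.0 by limma. Il10 after injection was 0.20 without H3RKO CFA, and Il12a was 0.12 without WT CFA+PTX. The probe sets carry no detection call, and a change in a dim cytokine RNA may go unread.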
